A study of Homo sapiens with 24 samples.

Results

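The BET degrader BETd-246 was compared directly with the BET inhibitor BETi-211 in the human breast cancer cell line MDA-MB-468, across all 14114 genes of the deposited table. The comparison rests on 4 of the 24 RNA-seq libraries of the series, chosen by the line and compound named in their labels, with 2 libraries of cells given 100 nM BETd-246 and 2 of cells given 1000 nM BETi-211, each for 3 h. The control level printed beside each difference comes from 4 further MDA-MB-468 libraries, 2 given 0.05% DMSO and 2 given 1000 nM thalidomide for 3 h. MDA-MB-157 and MDA-MB-231, with the same treatments, are used to test whether a difference in MDA-MB-468 was also different there. All 24 libraries were fitted together, so the other lines also enter the spread behind each SE, interval and p. MDA-MB-468 is labelled basal, negative for estrogen receptor alpha and progesterone receptor and without HER2 overexpression, and it is a single established line. The dose of the inhibitor was 10 times that of the degrader. Compound and dose cannot therefore be told apart in any difference below.

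BET proteins (BRD2, BRD3 and their relatives) are readers of acetylated histones that help RNA polymerase II leave its pause near promoters, partly through the kinase complex P-TEFb. A BET inhibitor occupies their bromodomains and leaves the protein in the cell. A BET degrader of this kind also binds cereblon, the substrate receptor of a ubiquitin ligase, so that the BET protein is marked for the proteasome. Thalidomide is a cereblon ligand and serves here as a control for that arm. In many cells BET inhibition lowers MYC and raises HEXIM1, the protein that holds P-TEFb inactive with the 7SK RNA.

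Expression is given in FPKM, fragments scaled to transcript length and to the number of mapped fragments. Differences are log2(FPKM + 1) with BETd-246 minus the same with BETi-211, so a negative value means lower with the degrader. Fold differences, the 2-fold limit included, are taken from that difference of FPKM + 1 and are not ratios of the FPKM printed. This scale understates differences of genes with low FPKM. A gene was called where its limma p, adjusted by Benjamini-Hochberg over all 14114 genes, was below 0.05. Levels given once per group are means of 2 libraries for a compound and of 4 for the controls, and ± after a difference is its SE. The 2 libraries of a group correlated across genes at 0.9981 for BETd-246 and 0.9983 for BETi-211. The median gene stood at 9.69 to 10.1 FPKM in the controls, 8.72 and 8.73 with BETi-211, and 7.89 and 7.94 with BETd-246. Mitochondrially encoded genes took 7.18% to 8.33%, 8.44% to 8.93% and 9.55% to 9.74% of the FPKM sum in the same order. Scaling to the sum of all other genes except small RNAs gave 677 genes called lower by at least 2-fold and 36 higher, against 699 and 37 as deposited. The line's defining markers were present in all 3 conditions. EGFR averaged 738 ± 40.9 FPKM in the controls (SD, n = 4) and the keratin genes KRT5, KRT8, KRT18 and KRT19 752, 1306, 1148 and 1388 FPKM. The mesenchymal factor ZEB1 stood at 0.081 FPKM. Of 15 fibroblast and endothelial markers 10 were in the table and the highest, FAP, reached 2.45 FPKM in the controls. Of 14 immune markers 3 were in the table, with group means of at most 0.8108 FPKM (CSF1R), and 0 of these 3 were called by limma. In bulk RNA, fewer cells of a type and less RNA per cell cannot be told apart.

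The 2 compounds left MDA-MB-468 cells with widely different transcript levels. Of the 14114 genes 6114 were called (43.3%), 3271 lower with BETd-246 (23.2%) and 2843 higher (20.1%). Differences of at least 2-fold ran almost all one way, with 699 genes lower with the degrader (4.95%) and 37 higher (0.262%). The genes called lower by at least 2-fold included 615 of 12046 protein-coding genes. Only 2 protein-coding genes, LIF and TMEM107, were called higher by at least 2-fold, and small structured RNAs made up 23 of the 37. That class ran both ways. Of its 289 genes 30 were called lower by at least 2-fold, and in all 56 were called lower and 27 higher (median -0.24). The split between higher and lower among small differences depends on the scaling. Of called genes 46.5% were higher with the values as deposited, 64.7% after quantile normalization and 66.0% after median-of-ratios scaling, which put the median of all genes at 0.08 and 0.10 in place of 0.02. At 2-fold the counts were 543 lower and 38 higher after quantile normalization, and 614 and 39 after median-of-ratios scaling. In 75.7% of all genes both libraries of one compound lay beyond both of the other, which is the background for every statement below that the compounds did not overlap. The 43.3% called, 23.2% lower and 20.1% higher are likewise the background for every count of called list members below. The lists were chosen with earlier results of these data known, so such counts are a description.

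**Figure D1:**
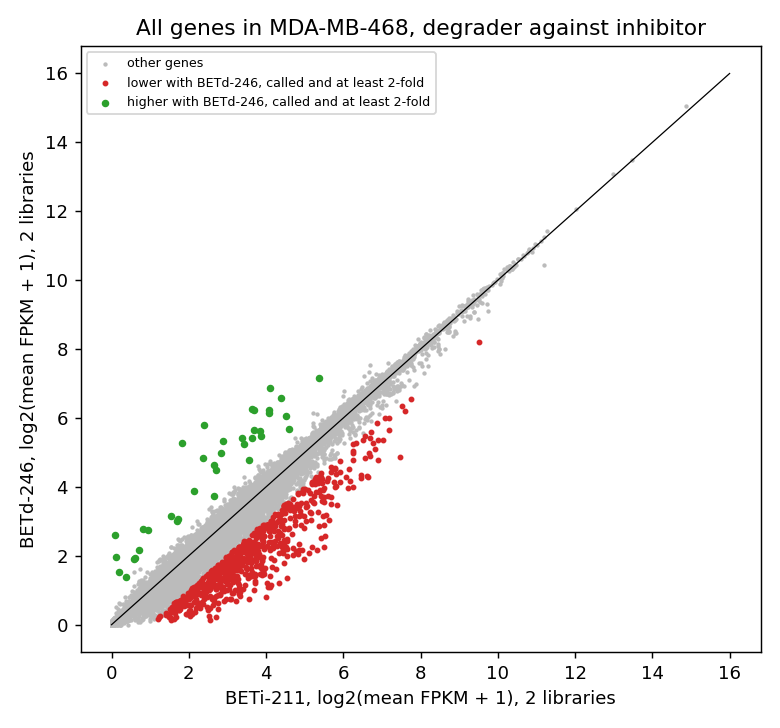
Mean level of each gene with BETi-211 (horizontal axis) and BETd-246 (vertical axis) in MDA-MB-468, both as log2(mean FPKM + 1) over 2 libraries, with the line of equal level. Red points are the 699 genes called lower with BETd-246 by at least 2-fold and green points the 37 called higher.

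The level in the controls shows how the 699 lower genes came apart. In 391 of them (55.9%) all 4 control libraries lay above both BETd-246 libraries and below both BETi-211 libraries, so the level was lower than in controls with the degrader and higher with the inhibitor. The same position was found for 853 of all 14114 genes (6.04%). In 145 of the 699 (20.7%, against 25.7% of all genes) the controls lay above both compounds. In 28 (4.01%, against 13.8%) they lay below both, and in 135 (19.3%, against 52.5%) they overlapped a compound. These shares are a description, because the choice of genes by their difference bears on them. The 615 protein-coding members had a median gene span of 16.5 kb and a median exon length of 4.01 kb, against 33.2 kb and 5.14 kb over all 12046 protein-coding genes. Their median control level was 8.13 FPKM, against 12.4 FPKM over all.

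The largest difference was in WDR47, a WD-repeat protein gene on chromosome 1 (108970214 to 109042113). Its libraries read 44.1 and 44.3 FPKM with BETi-211, 3.87 and 3.70 with BETd-246, and 7.40 to 8.06 in the controls. The inhibitor libraries were thus far above the controls and the degrader libraries below them, and the difference between compounds was -3.24 ± 0.04 (SE, adjusted p = 1.16e-16), or 9.44-fold. LFNG, the Lunatic fringe glycosyltransferase that modifies Notch receptors, read 22.5 and 22.2 FPKM with BETi-211, 1.52 and 1.59 with BETd-246 and 3.34 to 3.78 in the controls. It had the same order of groups with no overlap, and differed by -3.19 ± 0.09 (adjusted p = 6.74e-14). SGK1, the serum- and glucocorticoid-regulated kinase, read 14.7 and 15.1 FPKM with BETi-211, 0.820 and 0.677 with BETd-246 and 6.86 to 7.60 in the controls, a difference of -3.18 ± 0.06 (adjusted p = 1.71e-15).

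TIPARP, an ADP-ribosyltransferase induced by the aryl hydrocarbon receptor, stood at 38.1 and 39.1 FPKM with BETi-211, at 3.50 and 3.47 with BETd-246 and at 14.8 to 15.1 in the controls (difference -3.14 ± 0.07). RGS2, which shortens signalling by G protein-coupled receptors, stood at 18.7 and 19.8 FPKM with BETi-211, at 1.37 and 1.26 with BETd-246 and at 9.35 to 10.9 in the controls (-3.13 ± 0.09). ID2, an inhibitor of basic helix-loop-helix factors, stood at 31.2 and 30.1, at 2.69 and 2.82 and at 7.12 to 7.66 FPKM in the same order (-3.08 ± 0.06). All 3 had controls between the compounds. ING1, a chromatin reader of methylated histone H3, stood at 34.5 and 32.9 FPKM with BETi-211, at 3.63 and 2.90 with BETd-246 and at 13.4 to 14.4 in the controls (-3.03 ± 0.07). FAM222A stood at 15.2 and 15.7 FPKM, at 1.136 and 1.103 and at 1.82 to 2.37 in that order (-2.96 ± 0.09). ZNF627, a zinc finger gene, was different in its control level, which at 13.79 to 15.45 FPKM was close to the 16.3 and 16.9 with BETi-211, while BETd-246 read 1.29 and 1.18 (-2.98 ± 0.06). The adjusted p of these 6 genes was at most 1.37e-13.

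**Figure D2:**
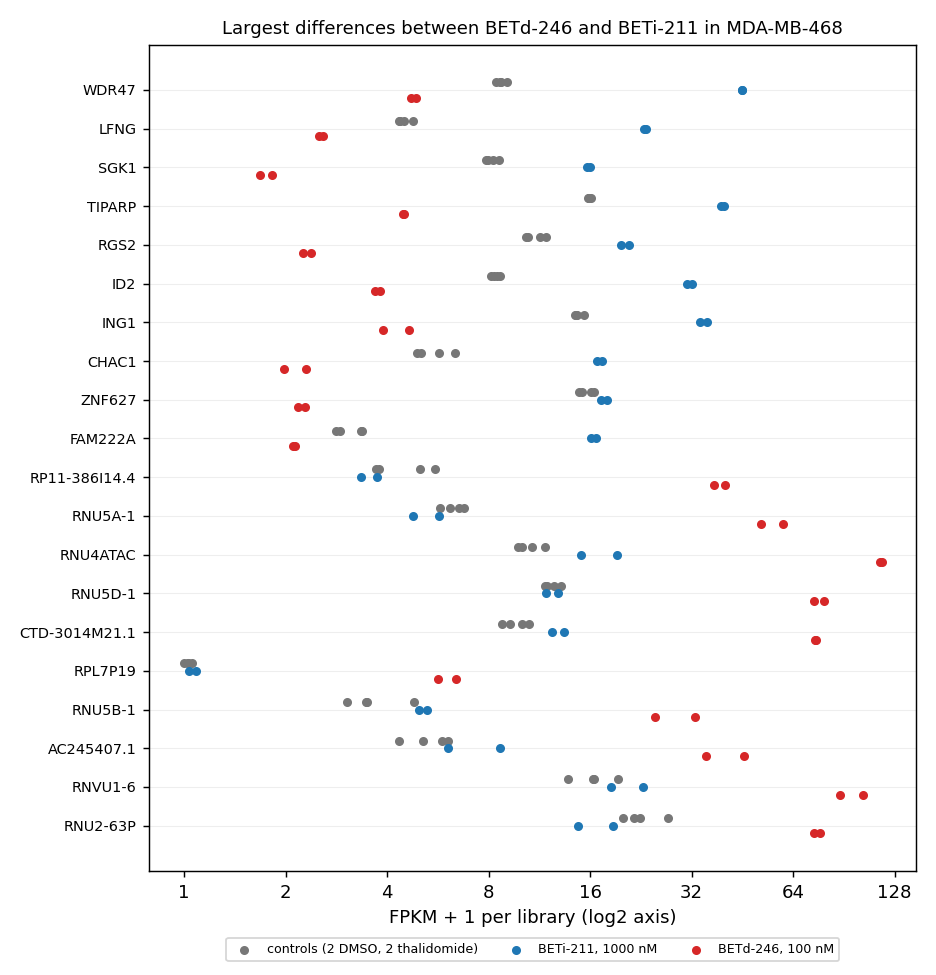
FPKM + 1 (log2 axis) in each MDA-MB-468 library for the 10 genes with the largest difference each way among called genes that reached 5 FPKM with one of the compounds. Grey points are the 4 controls, blue the 2 BETi-211 and red the 2 BETd-246 libraries. The lower genes fall on both sides of their controls, and in the higher genes both BETd-246 libraries lie above all others. Among the higher genes BETi-211 was also called against the controls for RNU4ATAC (0.69), CTD-3014M21.1 (0.42) and RNU2-63P (-0.45).

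BRD2, a ubiquitously expressed BET gene, was far lower with the degrader. It read 176.5 and 177.8 FPKM with BETi-211, 28.6 and 27.3 with BETd-246 and 60.9 to 70.7 in the controls, so that the controls lay between the compounds (-2.62 ± 0.05, adjusted p = 9.08e-16). BRD3 was low throughout, at 3.14 and 3.26 FPKM with BETd-246, 4.62 and 3.998 with BETi-211 and 3.52 to 4.41 in the controls (-0.34 ± 0.09, adjusted p = 0.00623), and this call ended without BETi-211 replicate 1 (-0.25, adjusted p = 0.0837) and after quantile normalization (-0.13, adjusted p = 0.212). Of the 25 bromodomain genes measured, 9 were lower and 5 higher, with a median of 0.02, the same as the median of all genes. That median became -0.03 with a filter of at least 1 FPKM. The share called was 56%, against 43.3% of all genes. BRPF1, a scaffold of a histone acetyltransferase complex, stood at 6.42 FPKM with BETi-211, 1.88 with BETd-246 and 7.28 in the controls (-1.36 ± 0.04), and TRIM24 at 30.9, 17.4 and 25.4 FPKM (-0.79 ± 0.04). CRBN, the cereblon gene, was slightly higher with the degrader, at 13.9 against 11.8 FPKM and 15.1 in the controls (0.21 ± 0.05, adjusted p = 0.00283). Among 16 genes of the cereblon ligase and its known neosubstrates 2 were lower and 8 higher, led by ZBTB39, lower at 0.619 against 1.99 FPKM (3.18 in controls), and ZNF827, higher at 2.82 against 1.76 (3.27 in controls).

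MYC, the growth-promoting transcription factor, was lowest with the degrader. It read 5.03 and 5.70 FPKM with BETd-246, 18.45 and 20.95 with BETi-211 and 58.9 to 63.0 in the controls, and the groups did not overlap (-1.70 ± 0.08, adjusted p = 1.59e-11, 3.25-fold). Here the controls lay above both compounds. MYCL read 0.337 and 0.324 FPKM with BETd-246, 4.61 and 4.59 with BETi-211 and 0.574 to 0.711 in the controls, so that the paralog was highest with the inhibitor (-2.07 ± 0.05). MXD1, a MAX partner that opposes MYC, stood at 2.62 against 11.5 FPKM with 8.21 in the controls (-1.78 ± 0.05). Of 11 genes of the MYC and MAX network 7 were lower and 2 higher, with a median of -0.32.

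HEXIM1 and MEPCE, 2 genes of the 7SK particle, lay on opposite sides of the control level with the 2 compounds. Both were called against the controls with each compound. They had the smallest adjusted p of their list and do not stand for its other members. Among all genes 33.7% were called below the controls with BETd-246 and 21.3% above them with BETi-211. HEXIM1 read 21.8 and 20.3 FPKM with BETi-211, 4.29 and 4.75 with BETd-246 and 9.92 to 12.1 in the controls (-2 ± 0.06, adjusted p = 1.69e-13). MEPCE, the capping enzyme of 7SK RNA, read 56.3 and 55.7 FPKM with BETi-211, 9.87 and 10.4 with BETd-246 and 31.9 to 34.2 in the controls (-2.36 ± 0.05). For both genes the controls lay between the compounds. CCNT1, the cyclin subunit of P-TEFb, stood at 13.03 FPKM with BETi-211, near the 13.6 of the controls, and at 5.45 with BETd-246 (-1.12 ± 0.05). The list of 26 P-TEFb, 7SK and elongation genes was mixed, with 9 lower, 6 higher and a median of -0.06 that became 0.04 after quantile normalization. Its share called was 57.7%, against 43.3% of all genes. Among 44 Mediator and RNA polymerase II subunits 11 were lower and 10 higher, and the 47.7% called was near the 43.3% of all genes. The lowest adjusted p belonged to the Mediator genes MED17 (1.96 against 4.99 FPKM, 7.83 in controls), MED9 (1.13 against 3.10, 7.23 in controls) and MED26 (2.43 against 7.11, 3.58 in controls).

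**Figure D3:**
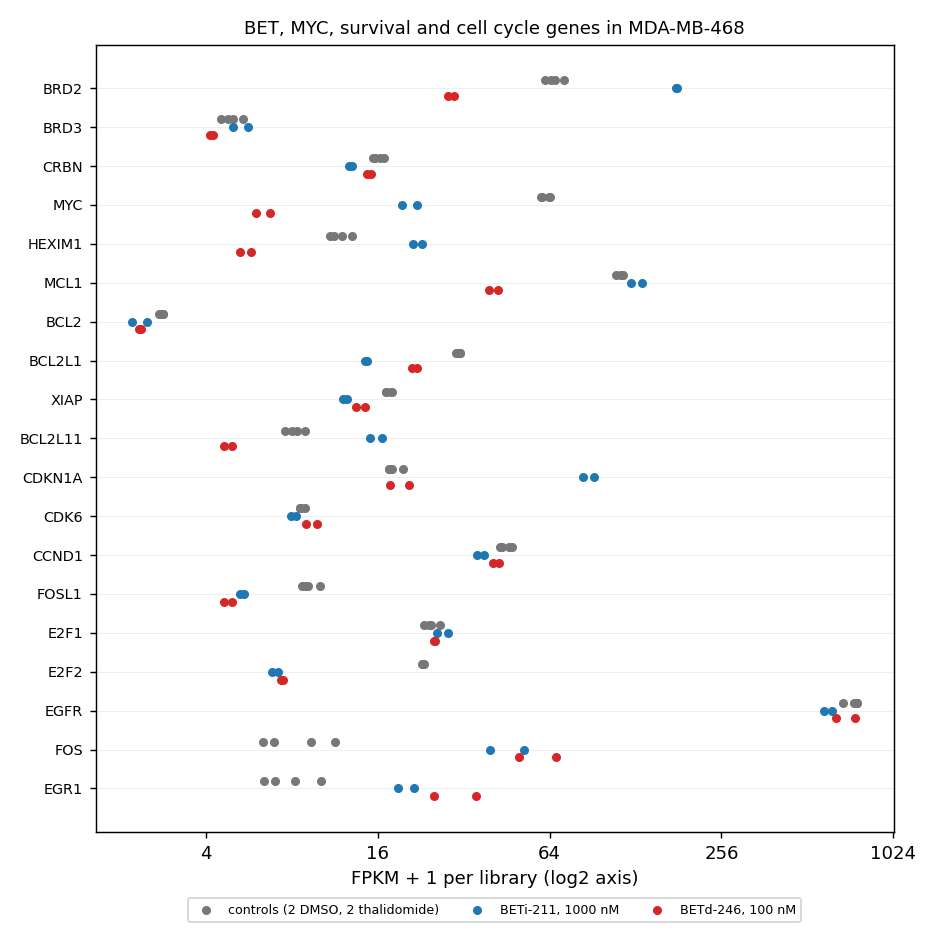
FPKM + 1 (log2 axis) per MDA-MB-468 library for BET, cereblon, MYC, survival, cell cycle and immediate-early genes. BRD2, HEXIM1, BCL2L11 and CDKN1A are highest with BETi-211 (blue), MYC is lowest with BETd-246 (red), and BCL2, E2F1, E2F2 and FOS were not called between the compounds.

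Immediate-early genes, which answer growth signals without new protein synthesis, were lower with the degrader in 23 of 25 cases and higher in 1, with a median of -1.15 against 0.02 over all genes. IER5 stood at 7.82 FPKM with BETd-246, 43.7 with BETi-211 and 39.1 in the controls (-2.34 ± 0.04). SGK1, TIPARP and RGS2, which are among the largest differences described above, belong to this list. The list was chosen with earlier results of these data known, so its counts and its median are a description. EGR1 was the higher gene of the list. It read 24.2 and 34.3 FPKM with BETd-246, 17.8 and 20.4 with BETi-211 and 5.40 to 9.18 in the controls (0.57 ± 0.17, adjusted p = 0.0132). Its call ended without BETd-246 replicate 2 (0.33, adjusted p = 0.199), without BETi-211 replicate 1 (0.48, adjusted p = 0.1) and with the 8 or the 4 libraries of MDA-MB-468 fitted alone (adjusted p = 0.105 and 0.0784). FOS read 49.2 and 66.4 FPKM with BETd-246, 38.7 and 51.1 with BETi-211 and 5.34 to 10.4 in the controls. The compounds overlapped, both lay above the controls, and the difference of 0.35 was not called (95% interval -0.08 to 0.79, adjusted p = 0.183). Among 14 AP-1 genes 9 were lower and 1 higher (median -0.40). JUND stood at 75.2 FPKM with BETi-211, 26.4 with BETd-246 and 29.4 in the controls (-1.48 ± 0.07). FOSL1 stood at 3.79 FPKM with BETd-246 and 4.35 with BETi-211, with 8.20 in the controls (-0.16, 95% interval -0.30 to -0.03, adjusted p = 0.0515). It was called under 6 alternatives, such as a pseudocount of 0.1 (adjusted p = 0.0303) and column-total scaling (adjusted p = 0.0348).

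Feedback brakes on MAP kinase signalling were lower with the degrader in 11 of 15 cases and higher in 3 (median -0.89). DUSP6, the phosphatase of ERK, stood at 0.663 FPKM with BETd-246, 6.87 with BETi-211 and 6.22 in the controls (-2.24 ± 0.08). DUSP10, a phosphatase of p38 and JNK, stood at 0.846, 5.97 and 2.12 FPKM in that order (-1.92 ± 0.06), and DUSP7 at 3.24, 10.1 and 6.82 (-1.39 ± 0.06). EGFR itself, whose gene is highly expressed in this line, read 644 and 753 FPKM with BETd-246, 582 and 625 with BETi-211 and 678 to 765 in the controls. Its difference of 0.21 was not called (95% interval 0.03 to 0.38, adjusted p = 0.0567), but was called under 4 alternatives, such as without BETd-246 replicate 1 (0.32, adjusted p = 0.0146). Of 28 receptor tyrosine kinase genes 9 were lower and 4 higher (median -0.03), and 46.4% were called against 43.3% of all genes. FGFR3 and EPHB3 had the lowest adjusted p of this list. FGFR3 stood at 13.4 FPKM with BETi-211 and 2.31 with BETd-246, against 2.59 in the controls (-2.12 ± 0.06), and EPHB3 at 19.2, 3.24 and 13.7 (-2.25 ± 0.06).

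The integrated stress response and the unfolded protein response, in which the factor ATF4 and its partners induce amino acid and folding genes, held 20 genes of 25 that were lower with the degrader and 2 that were higher (median -0.76). CHAC1, an enzyme that cleaves glutathione, read 16.4 and 15.8 FPKM with BETi-211, 0.978 and 1.29 with BETd-246 and 3.92 to 5.38 in the controls (-3.00 ± 0.09, adjusted p = 2.01e-13). DDIT3, the pro-death factor CHOP, read 34.7 and 36.4 FPKM with BETi-211, 3.66 and 3.92 with BETd-246 and 10.3 to 12.7 in the controls (-2.93 ± 0.08). In both, the controls lay between the compounds with no overlap. SESN2, a sestrin that restrains mTORC1, stood at 11.4, 1.65 and 4.21 FPKM with inhibitor, degrader and controls (-2.23 ± 0.05), and PPP1R15A, which resets the response by guiding a phosphatase, at 44.09, 11.97 and 20.83 (-1.80 ± 0.05). HERPUD1, a membrane protein of the endoplasmic reticulum named here after its values were seen, stood at 50.2, 10.4 and 25.4 FPKM (-2.17 ± 0.06). TRIB3 went the other way, at 15.4 FPKM with BETi-211, 22.7 with BETd-246 and 68.1 in the controls (0.53 ± 0.07), and was also named after its values were seen.

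The element that ATF4 binds with C/EBP partners, TGATGNAAN on either strand, was searched in the window from 250 bases before to 50 after each start site in RefSeq (GRCh38.p14). It was found in 6 of the 24 promoters matched to this list, against 263 of 14018 promoters of genes in the table (1.88%) and 1268 of 35116 in all (3.61%). The 6 belong to ASNS, ATF3, CEBPG, CHAC1, HERPUD1 and SLC3A2. DDIT3 and SESN2, both lower with the degrader by more than 4-fold, were not among them. A match is a description of letters, not evidence of binding. The list gathers genes of this response, so its share with the element says nothing about the compounds. The promoters of CHAC1 and HERPUD1 are shown because both genes were lower with the degrader by more than 4-fold and hold the element. They were picked by that fall, and the differences of ASNS, ATF3, CEBPG and SLC3A2 are not given here. Whether the element goes with a lower level was not tested. The element is in capitals (read on the reverse strand, NTTNCATCA).
CHAC1, chr15:40953221-40953520, plus strand: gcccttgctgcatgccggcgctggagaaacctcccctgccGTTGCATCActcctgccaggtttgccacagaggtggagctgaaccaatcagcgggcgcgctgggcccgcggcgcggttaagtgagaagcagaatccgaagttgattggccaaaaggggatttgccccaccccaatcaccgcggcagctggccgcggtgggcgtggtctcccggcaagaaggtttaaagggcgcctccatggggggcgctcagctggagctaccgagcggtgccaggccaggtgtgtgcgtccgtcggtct
HERPUD1, chr16:56931892-56932191, plus strand: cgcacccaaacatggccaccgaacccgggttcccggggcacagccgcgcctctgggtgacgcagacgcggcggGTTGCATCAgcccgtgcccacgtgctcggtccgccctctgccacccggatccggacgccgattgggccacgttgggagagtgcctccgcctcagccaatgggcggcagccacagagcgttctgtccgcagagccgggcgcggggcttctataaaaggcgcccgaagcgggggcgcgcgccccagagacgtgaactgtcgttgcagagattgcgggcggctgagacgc

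Heat shock and co-chaperone genes were lower in 14 of 23 cases and higher in 3 (median -0.15). HSPA1B, an inducible HSP70, stood at 97.2 FPKM with BETi-211, 18.9 with BETd-246 and 29.5 in the controls (-2.30 ± 0.11). Its reads cannot be told apart with certainty from those of the near-identical HSPA1A. DNAJB1, an HSP40 partner, stood at 191.7, 72.0 and 89.4 FPKM (-1.40 ± 0.05) and BAG3 at 15.48, 6.51 and 10.2 (-1.13 ± 0.05). Of 28 sterol response and cholesterol synthesis genes 12 were lower and 3 higher (median -0.13). The share called was 53.6% in the sterol list and 73.9% in the heat shock list, against 43.3% of all genes. MYLIP, a ubiquitin ligase induced by the sterol sensor LXR, stood at 44.8 FPKM with BETi-211, 4.93 with BETd-246 and 10.6 in the controls (-2.95 ± 0.06). INSIG1, which holds back sterol synthesis, stood at 47.3, 12.4 and 18.3 (-1.86 ± 0.05).

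CDKN1A, the cell cycle inhibitor p21, separated the compounds by position against the controls. It read 82.8 and 90.4 FPKM with BETi-211, 16.7 and 19.6 with BETd-246 and 16.5 to 18.6 in the controls (-2.20 ± 0.07, adjusted p = 2.01e-13, 4.59-fold). The degrader libraries overlapped the controls, and the inhibitor libraries were far above. Of the 7 CDK inhibitor genes 6 were lower and 0 higher by the limma call (median -0.96). CDKN2B, the inhibitor p15, stood at 31.8 FPKM with BETi-211, 10.5 with BETd-246 and 13.5 in the controls (-1.51 ± 0.04), and CDKN2D at 29.99, 14.94 and 19.02 (-0.96 ± 0.07). Across 26 p53 target genes 17 were lower and 1 higher (median -0.46). The share called was 85.7% in the CDK inhibitor list and 69.2% in the p53 target list, against 43.3% of all genes. PLK2, a polo-like kinase, stood at 14.98 FPKM with BETd-246, 54.5 with BETi-211 and 119.7 in the controls (-1.80 ± 0.06). The higher gene was MDM2, the ligase that degrades p53, at 42.2 against 25.7 FPKM with 51.9 in the controls (0.69 ± 0.08), named after its values were seen.

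Cell cycle drivers differed unevenly. CCNE1 and CCNE2, the cyclins E of the G1 to S step, stood at 10.4 and 15.3 FPKM with BETd-246, 27.1 and 54.6 with BETi-211 and 21.2 and 31.7 in the controls (-1.30 ± 0.06 and -1.77 ± 0.08). CCND1 and CDK6 were slightly higher with the degrader (0.18 ± 0.04 and 0.21 ± 0.04), and the call of CCND1 ended after quantile normalization (0.13, adjusted p = 0.101) and that of CDK6 with the 4 compared libraries alone (adjusted p = 0.0659). E2F1 was not called (-0.10, 95% interval -0.23 to 0.03, adjusted p = 0.229). E2F2 stood at 6.39 against 6.01 FPKM and 22.1 in the controls, lower than in controls with either compound, and was not called between them (0.08, 95% interval -0.02 to 0.17, adjusted p = 0.183). It was called after median-of-ratios scaling (0.17, adjusted p = 0.00341) and quantile normalization (0.24, adjusted p = 0.00026). Of 19 G1 genes 7 were lower and 5 higher, with a median of -0.07 that became 0.07 after quantile normalization. Of 32 S, G2 and M phase genes 6 were lower and 8 higher (median 0.05), none by 2-fold. Among 29 homologous recombination genes 4 were lower and 6 higher (median 0.01). The shares called were 43.8% and 34.5% in that order, against 43.3% of all genes. PALB2, the partner of BRCA2, stood at 1.99 against 3.52 FPKM with 6.64 in the controls (-0.60 ± 0.04). RBBP8 was among the higher, at 27.9 against 23.85 FPKM with 29.48 in the controls (0.22 ± 0.05).

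MCL1, the short-lived survival protein of the BCL2 family, was the survival gene that was lower with the degrader. It read 38.3 and 41.4 FPKM with BETd-246, 122.9 and 134.3 with BETi-211 and 108.7 to 114.5 in the controls (-1.67 ± 0.05, adjusted p = 2.26e-13). BCL2L1, which encodes BCL-XL, was higher with the degrader, at 20.97 and 20.1 FPKM against 13.5 and 13.8, and both groups lay below the 29.1 to 30.1 of the controls (0.56 ± 0.04). BCL2 was not called (0.00, 95% interval -0.13 to 0.14, adjusted p = 0.979) but was after quantile normalization (0.22, adjusted p = 0.0109), and XIAP, an inhibitor of caspases, differed by 0.18 ± 0.04 (adjusted p = 0.00277), a call lost without BETd-246 replicate 2 (0.13, adjusted p = 0.0549) and with the 4 compared libraries alone (adjusted p = 0.0607). Of 10 survival genes 1 was lower and 5 higher (median 0.15), with 60% called against 43.3% of all genes. On the pro-death side 11 of 23 genes were lower and 0 higher by limma, and the 47.8% called was near the 43.3% of all genes. BCL2L11, which encodes BIM, read 15.62 and 14.03 FPKM with BETi-211, 3.97 and 3.65 with BETd-246 and 6.6 to 7.92 in the controls (-1.72 ± 0.15). PMAIP1, or NOXA, stood at 34.8, 11.3 and 15.6 FPKM with inhibitor, degrader and controls (-1.55 ± 0.06). The median of this list, -0.11, became 0.04 after quantile normalization.

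Developmental regulators held several of the larger differences. ID1 stood at 3.05 FPKM with BETd-246, 25.1 with BETi-211 and 31.7 in the controls (-2.69 ± 0.07), and the growth factor BMP4 at 0.413, 4.83 and 5.48 (-2.05 ± 0.05). Of 25 ID and TGF-beta or BMP feedback genes 10 were lower, 9 of them by at least 2-fold, and 6 higher (median -0.12). KLF4 and KLF5, epithelial zinc finger factors, stood at 1.23 and 7.18 FPKM with BETd-246 against 9.90 and 21.1 with BETi-211 and 6.21 and 28.5 in the controls (-2.29 ± 0.08 and -1.43 ± 0.07), in a list of 12 with 8 lower and 2 higher. Of that KLF list 83.3% were called, against 43.3% of all genes. The list of breast epithelial and basal genes was mixed, with 9 lower and 12 higher of 28 (median 0.12). Its members with the smallest adjusted p were all lower. FOXC1 stood at 3.78 against 14.4 FPKM with 17.6 in the controls (-1.69 ± 0.04), TFAP2C at 7.59 against 23.8 with 34.9 (-1.53 ± 0.05) and FOXA1 at 2.44 against 7.89 with 12.7 (-1.37 ± 0.05).

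In the Notch pathway 11 of 18 genes were lower and 3 higher (median -0.30), with 77.8% called against 43.3% of all genes. DLL4, a Notch ligand, stood at 0.198 FPKM with BETd-246, 3.08 with BETi-211 and 0.0761 in the controls (-1.77 ± 0.06), and NRARP, a feedback inhibitor, at 1.69, 7.67 and 2.79 (-1.69 ± 0.07). In the Wnt pathway the Frizzled receptors led 12 lower and 7 higher genes of 29, and 65.5% of the list were called. FZD7 stood at 1.94, 14.2 and 5.18 FPKM with degrader, inhibitor and controls (-2.37 ± 0.05), FZD1 at 1.11, 4.44 and 2.74 (-1.37 ± 0.04) and FZD4 at 0.756, 4.58 and 1.64 (-1.67 ± 0.06). All 3 had the control mean between the compounds. The targets of YAP and TEAD were higher in 11 of 22 cases and lower in 3 (median 0.16), with TGFB2 at 21.2 against 13.3 FPKM and 30.8 in the controls (0.63 ± 0.04). NFKBIE, an NF-kB inhibitor, stood at 2.86 against 10.4 FPKM with 7.96 in the controls (-1.56 ± 0.07). Its list of 21 NF-kB and cytokine genes was mixed, with 6 lower and 7 higher (median 0.07), NFKB1 among the higher (0.33). Of 29 interferon response genes 6 were lower and 7 higher (median 0.04), and 44.8% were called against 43.3% of all genes. The interferon factors IRF1 (5.89 against 14.3, 40.6 in controls) and IRF7 (12.2 against 36.9, 9.47 in controls) were both lower with the degrader, around control levels that lay above both compounds for IRF1 and below both for IRF7.

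Zinc finger genes of the ZNF series, mostly KRAB-type repressors, formed the largest list. Of 448 measured, 284 were lower with the degrader, 102 of them by at least 2-fold, and 55 were higher, 0 by 2-fold (median -0.44). ZNF670 stood at 0.886 against 8.87 FPKM with 5.89 in the controls (-2.39 ± 0.06), and ZNF280C at 3.65 against 17.02 with 5.63 (-1.95 ± 0.05). Among 76 histone genes 41 were lower and 5 higher (median -0.29). H2AFX, the variant marked at DNA breaks, stood at 37.7 against 108.2 FPKM with 55.8 in the controls (-1.50 ± 0.05). HIST2H4B stood at 10.6 against 36.8 with 5.14 (-1.71 ± 0.09), though this gene has an identical copy and its level is uncertain. The splicing kinases CLK1 and CLK4 were lower, at 6.996 and 3.31 FPKM against 31.7 and 10.3 (-2.03 ± 0.08 and -1.39 ± 0.10). Their controls stood at 24.5 and 14.2 FPKM. The list of 19 SR splicing factor and CLK kinase genes was mixed, with 8 lower and 7 higher (median -0.07). SRSF4 was among the higher, at 20.27 against 14.5 FPKM with 26.65 in the controls (0.46 ± 0.04).

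Lists for housekeeping machinery differed little. Of 82 cytosolic ribosomal protein genes 1 was lower and 2 higher, with values from -0.38 to 0.18 and a median of 0.05. Of 79 nuclear respiratory chain genes 3 were lower and 5 higher (median 0.07), and of 37 proteasome subunit genes 0 were lower and 8 higher by limma (median 0.08, highest 0.26). Mitochondrial ribosomal protein genes were higher in 18 of 77 cases and lower in 3 (median 0.11). The shares called were 3.66%, 10.1%, 21.6% and 27.3% in the order given, against 43.3% among all genes.

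**Figure D4:**
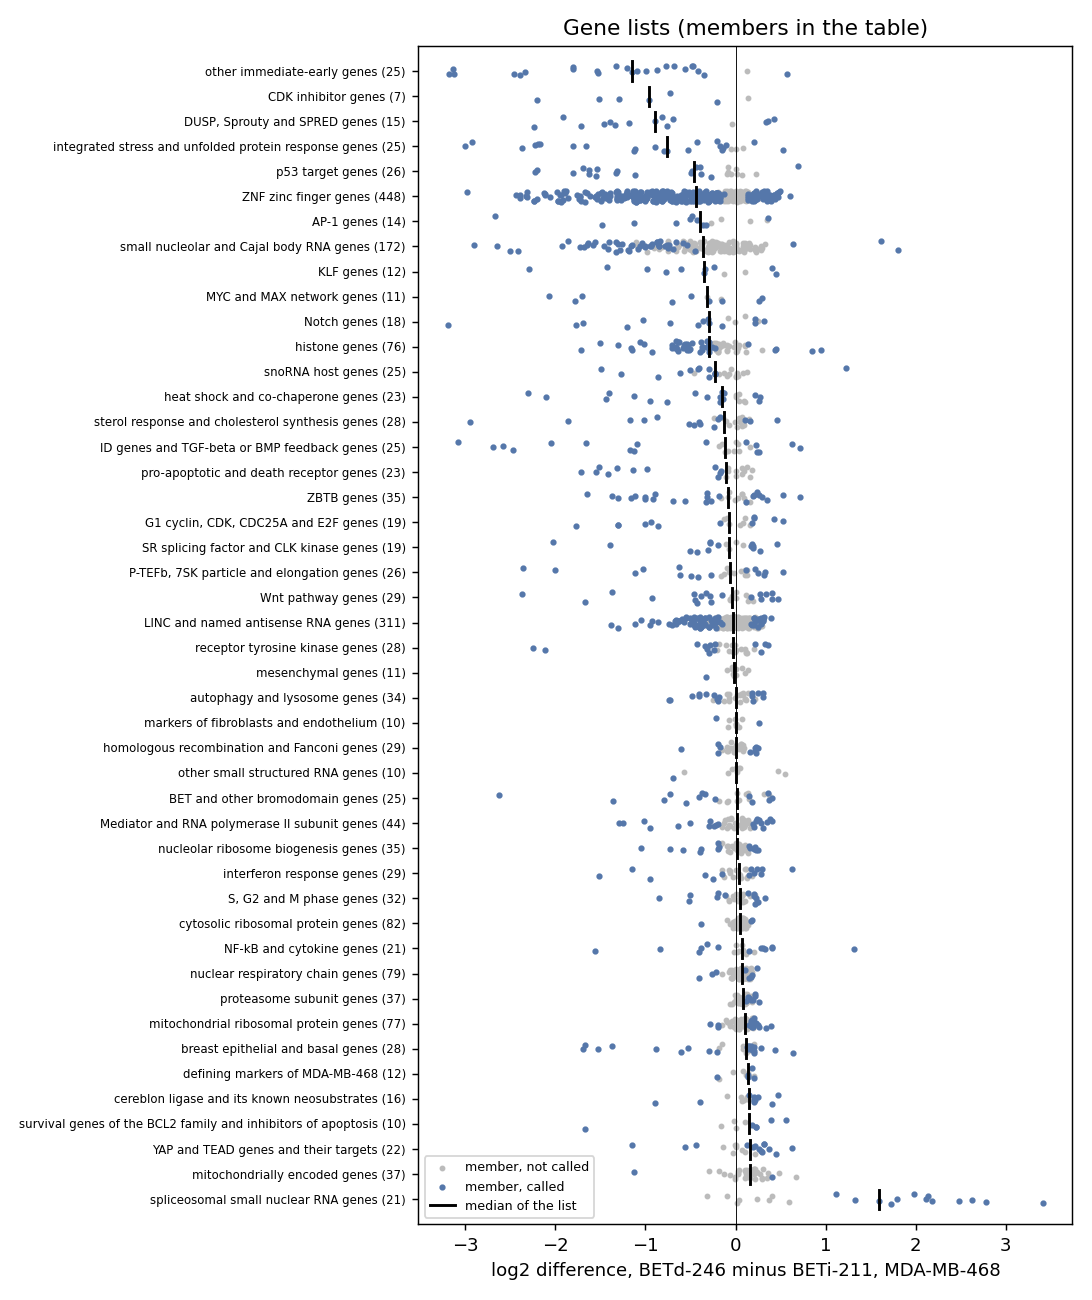
Log2 difference (BETd-246 minus BETi-211, MDA-MB-468) of each member of the gene lists with at least 7 members in the table, ordered by median (black bars). Blue points are called genes. Immediate-early, CDK inhibitor, MAP kinase feedback and stress response lists lie to the left at medians from -1.15 to -0.76, and spliceosomal small nuclear RNAs lie to the right at 1.59.

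Spliceosomal small nuclear RNAs were the group that was higher with the degrader. These RNAs, with their proteins, recognise splice sites and catalyse intron removal, and U4atac and U12 serve the minor class of introns. Of 21 such genes measured, 13 were called higher, all by at least 2-fold, and 0 lower by limma (median 1.59). Of the 10 largest differences towards higher, 3 were in U5 copies and 1 in RNU4ATAC, the gene of U4atac. The sequence of RNU4ATAC is shown because it reached the highest level of these with the degrader and belongs to the minor spliceosome. It is that of GENCODE 29 on GRCh38, written as DNA.
RNU4ATAC, chr2:121530881-121531007, plus strand: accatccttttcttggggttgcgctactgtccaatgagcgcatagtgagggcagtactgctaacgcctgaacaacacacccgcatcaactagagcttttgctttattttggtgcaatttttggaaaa

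How reads that fit several U5 copies were counted is not given in the sources used here, so the level of a single copy is uncertain. RNU5A-1 read 50.3 and 58.9 FPKM with BETd-246, 3.79 and 4.70 with BETi-211 and 4.74 to 5.76 in the controls (3.41 ± 0.16, adjusted p = 3.04e-11). RNU5D-1 read 78.2 and 72.9 FPKM with BETd-246, 10.8 and 11.9 with BETi-211 and 10.7 to 12.1 in the controls (2.63 ± 0.29). RNU5B-1 read 31.79 and 23.97, 3.98 and 4.25, and 2.03 to 3.81 FPKM in that order (2.48 ± 0.28). For these 3 copies the degrader libraries alone stood apart, and the inhibitor libraries lay within or close to the control range. RNU4ATAC read 115.1 and 116.2 FPKM with BETd-246, 18.29 and 14 with BETi-211 and 8.78 to 10.8 in the controls (2.78 ± 0.16). It lies inside CLASP1 on the opposite strand and inside AC012447.1 on the same strand, and RNU5A-1 lies inside PARP16 on the opposite strand. The libraries do not mark strand, so host reads are not separable. The abundant copies RNU4-2 and RNU4-1, named after their values were seen, averaged 320.1 and 78.6 FPKM with BETd-246 and 269.2 and 59.0 with BETi-211. Neither was called (0.24, 95% interval -0.60 to 1.07, adjusted p = 0.673, and 0.41, 95% interval -0.39 to 1.21, adjusted p = 0.41).

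Several of the other transcripts that were much higher with the degrader were non-coding. RP11-386I14.4, an antisense transcript on chromosome 1 (78004346 to 78004554) opposite DNAJB4 and GIPC2, whose reads cannot be told apart from its own, read 39.2 and 36.3 FPKM with BETd-246, 2.73 and 2.34 with BETi-211 and 2.72 to 4.56 in the controls (3.45 ± 0.20). CTD-3014M21.1 read 73.4 and 73.9 FPKM with BETd-246, 12.4 and 11.3 with BETi-211 and 7.78 to 9.57 in the controls (2.54 ± 0.08). RPL7P19, a processed pseudogene, read 4.69 and 5.41 FPKM with BETd-246 and at most 0.0881 in the other 6 libraries (2.51 ± 0.14). The degrader libraries stood far above the others in all 3, and CTD-3014M21.1 was also called above the controls with the inhibitor (0.42). The U1 variant RNVU1-6 stood at 94.6 FPKM with BETd-246, 19.8 with BETi-211 and 15.48 in the controls, and RNU2-63P at 74.5, 15.7 and 21.8. Of 172 small nucleolar RNAs 48 were lower, 29 of them by at least 2-fold, and 3 higher (median -0.36). Their share called was 29.7%, below the 43.3% of all genes. SNORD22, inside the host gene SNHG1 and present under 2 identifiers in the table, read 5.09 and 4.32 FPKM with BETd-246 at ENSG00000278527, 42.7 and 40.6 with BETi-211 and 21.8 to 30.4 in the controls (-2.90 ± 0.13). SNORD3B-1, a U3 copy, was higher, at 48.7 against 13.3 FPKM with 8.91 in the controls (1.80 ± 0.14). Among snoRNA host genes 12 of 25 were lower and 1, TMEM107, was higher, and the 52% called compares with the 43.3% of all genes.

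Protein-coding genes higher with the degrader had other control levels. LIF, a cytokine of the interleukin 6 family, read 6.59 and 7.40 FPKM with BETd-246, 2.15 and 2.29 with BETi-211 and 12.2 to 14.8 in the controls (1.31 ± 0.08, adjusted p = 7.27e-10). The controls lay above both compounds, and the inhibitor libraries were the lowest. INHBB, an inhibin and activin subunit, stood at 9.23 against 4.71 FPKM with 20.2 in the controls (0.84 ± 0.06), and NCOA7 at 18.4 against 9.85 with 23.2 (0.84 ± 0.12). TMEM107, a ciliary membrane protein, read 25.9 and 27.5 FPKM with BETd-246, 10.7 and 10.8 with BETi-211 and 8.82 to 10.3 in the controls (1.23 ± 0.10). The U8 small nucleolar RNA SNORD118 lies inside this gene on the same strand, so its reads may be counted there. Histone genes HIST1H2BM and HIST1H2BB stood at 70.4 and 186.0 FPKM with BETd-246, 36.0 and 102.5 with BETi-211 and 53.3 and 131.8 in the controls (0.95 ± 0.07 and 0.85 ± 0.11), with reads that share closely related copies.

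The difference between the compounds in MDA-MB-468 was tested against the same difference in the other lines. It was itself different from MDA-MB-157 in 2043 genes (14.5%), 1181 towards lower (8.37%) and 862 towards higher (6.11%) with the degrader, and from MDA-MB-231 in 1956 genes (13.9%), 985 (6.98%) and 971 (6.88%). WDR47 and CHAC1 were lower with the degrader in each line but by more in MDA-MB-468 on the log2(FPKM + 1) scale. WDR47 differed by -1.94 in MDA-MB-157 and -1.99 in MDA-MB-231 (tests of the difference, adjusted p = 2.12e-09 and 2.47e-09). CHAC1 differed by -1.72 and -1.64 in these lines (adjusted p = 4.81e-06 and 2.18e-06). It was at most 4.6 FPKM in their compound libraries, where this scale understates its difference. For RGS2 the values of -3.08 and -2.94 in the other lines were not called different from MDA-MB-468 (adjusted p = 0.857 and 0.409). BRD2 was lower by more in MDA-MB-468 than in both lines, where it differed by -1.98 and -1.97 (adjusted p = 4.81e-06 and 3.72e-06). MYC differed by -2.19 and -1.93, with a smaller difference in MDA-MB-468 than in MDA-MB-157 called (adjusted p = 0.00464) and that with MDA-MB-231 not (adjusted p = 0.205). HEXIM1 was lower by more in MDA-MB-157, at -2.76 (adjusted p = 1.24e-05), and its -1.90 in MDA-MB-231 was not called different (adjusted p = 0.609).

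**Figure D5:**
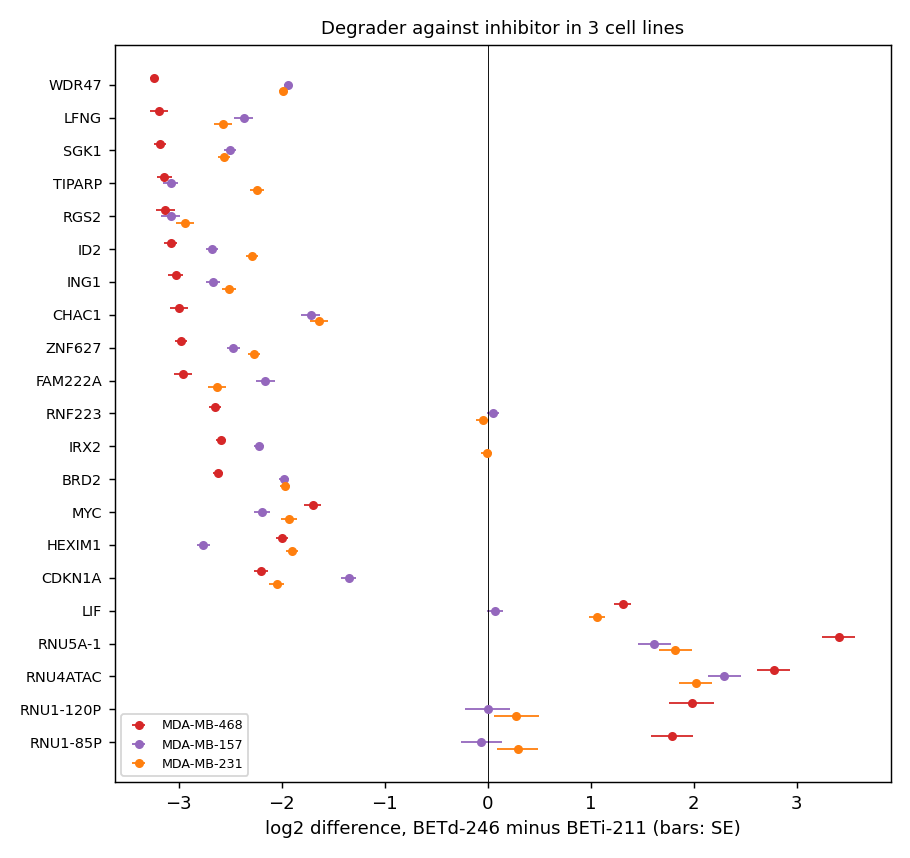
Log2 difference, BETd-246 minus BETi-211, with standard errors, in MDA-MB-468 (red), MDA-MB-157 (purple) and MDA-MB-231 (orange). WDR47, CHAC1, RNF223 and RNU5A-1 are farther from 0 in MDA-MB-468 than in the other lines, while RGS2 is close to -3 in each.

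Some of the differences between lines follow from genes that one line barely expresses. RNF223, a ring finger gene, read 18.3 and 17.9 FPKM with BETi-211, 1.95 and 2.13 with BETd-246 and 8.64 to 11.2 in the controls of MDA-MB-468 (-2.65 ± 0.06), and no compound library of the other lines was above 0.21 FPKM. IRX2, an Iroquois homeobox gene, read 42.7 and 45.1 FPKM with BETi-211, 6.43 and 6.46 with BETd-246 and 18.7 to 21.1 in the controls (-2.59 ± 0.05). It differed by -2.22 in MDA-MB-157 and was at most 0.0316 FPKM in the compound libraries of MDA-MB-231. IL11 and SNAI2 were the reverse case, at no more than 0.513 and 0.0199 FPKM in any compound library of MDA-MB-468. The lincRNA RP11-465B22.8 read 8.15 and 6.16 FPKM with BETi-211, 1.068 and 1.002 with BETd-246 and 3.95 to 9.09 in the controls (-1.99 ± 0.20). The U1 pseudogenes RNU1-120P and RNU1-85P were higher with the degrader in MDA-MB-468. They read 24.7 and 23.1 against 5.51 and 5.11 FPKM, and 23.3 and 19.7 against 5.48 and 5.44. RNU1-85P lies inside TEX14 and AC011195.2 on the same strand, so their reads may be counted there. EGR1 differed by 1.56 in MDA-MB-157 and 2.69 in MDA-MB-231, more than its 0.57 in MDA-MB-468 (adjusted p = 0.0105 and 1.29e-05).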

How the data were processed

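RNA-seq of 24 libraries from cultured cells was used. The authors deposited 1 table of FPKM values, a unit inferred from the values. Bowtie 0.12.8, GRCh38.p5 and bcl2fastq 2.17.1.14 are named, per the submitters' processing notes. Which program gave the FPKM is not given in the sources used here, nor is the annotation, and depth is unknown. Per the labels' protocols, ribosomal RNA was removed and the TruSeq kit does not mark strand, so overlapping genes on opposite strands cannot be told apart. FPKM are relative to each library, so a change in total RNA per cell cannot be seen.

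Values were transformed as log2(FPKM + 1) and fitted with limma 3.58.1 in R 4.3.3, with 12 group means of 2 libraries, a variance trend, no robust step, and 12 residual and 3.32 prior degrees of freedom. Tests were two-sided and adjusted by Benjamini-Hochberg over 14114 genes. An exact permutation of 2 against 2 libraries cannot go below 0.333. Replicates are called independent by the series description. The script was tested on simulated data. GENCODE 29 gave coordinates (1-based, GRCh38) for 13951 genes.

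Members and lists were chosen with earlier results of these data known. Genes were named by rule: the 10 largest called differences each way among genes that reached 5 FPKM with one compound and did not overlap between compounds, the 6 largest each way among coding genes, up to 3 called genes per list in order of adjusted p, a fixed set, and the 2 largest each way of the tests between lines. Some genes and sequences that the rules select are not reported here. Alternatives changed the pseudocount, filter, scaling, variance trend, block and libraries.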

Additional observations from a re-analysis of the deposited data

Results flagged for a closer look

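The results in this part are genes named above, or in the lists above, for which the difference between BETd-246 and BETi-211 in MDA-MB-468 was itself at least 2-fold away from that in another line and was called by limma's test of that difference. Values are log2, MDA-MB-468 minus the other line.

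Genes that were lower with the degrader by more in MDA-MB-468 than in both other lines include RNF223 (-2.70 from MDA-MB-157 and -2.60 from MDA-MB-231), RP11-465B22.8 (-2.01 and -2.01), DDIT3 (-1.45 and -1.30), CHAC1 (-1.28 and -1.36), WDR47 (-1.29 and -1.25), BMP4 (-1.80 and -1.25), MYCL (-1.13 and -1.17) and the SNORD22 copy in SNHG1 (-1.19 and -1.02). FOXA1 stood at -1.10 and -1.38. In the compound libraries of the other lines RNF223, RP11-465B22.8 and FOXA1 were at most 0.2962 FPKM, so these values are mostly those of MDA-MB-468. CHAC1 was at most 4.6 FPKM there, where the log2(FPKM + 1) scale understates its difference. From MDA-MB-157 alone, KLF4 stood at -1.35, NRARP at -1.16 and FGFR3 at -1.09. From MDA-MB-231 alone, FZD7 stood at -1.35, DUSP6 at -1.06 and PMAIP1 at -1.02. IRX2 stood at -2.59 and CDKN2B at -1.51, with IRX2 at most 0.03155 FPKM and CDKN2B listed at 0 in the compound libraries of MDA-MB-231. HIST1H1A at -2.09 and KLF10 at -1.49 were higher with the degrader in MDA-MB-231 (0.93 and 0.71) and lower in MDA-MB-468. EGR1 at -2.12 and FOS at -1.17 from MDA-MB-231 reflect larger differences towards higher in that line.

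In the other direction, RNU1-120P stood at 1.98 and 1.70, RNU1-85P at 1.86 and 1.5, RNU5A-1 at 1.79 and 1.59 and RNVU1-6 at 1.42 and 1.14. RNU1-120P was listed at 0 in the compound libraries of MDA-MB-157, and RNU1-85P was at most 0.5284 FPKM in those of both other lines. RNU5D-1 stood at 1.45 and HIST1H2BB at 1.16 from MDA-MB-231, and AC245407.1 at 1.22, LIF at 1.24 and SNAI1 at 1.38 from MDA-MB-157. LIF was at most 0.1996 FPKM in the compound libraries of MDA-MB-157, and SNAI1 was lower with the degrader there (-1.72). IL11 (1.15 and 2.45) and SNAI2 (1.52 and 1.74) were near 0 FPKM in MDA-MB-468, so these values are those of the other lines.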

How the results depend on the processing

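Of the called differences of single genes above, 0 changed direction under any alternative. List medians near 0 did change sign, as in these examples. The P-TEFb, G1, ZBTB and long non-coding medians did so after quantile normalization and median-of-ratios scaling (to 0.04 and 0.03, 0.07 and 0.03, 0.04 and 0.01, and 0.11 and 0.02). The pro-apoptotic median did so after quantile normalization (0.04), and the Wnt and splicing kinase medians after median-of-ratios scaling (0.03 and 0.04). With a filter of at least 1 FPKM the bromodomain median went from 0.02 to -0.03. The mesenchymal median went from -0.02 to 0.07 with that filter and to 0.14 with at least 5 FPKM. After quantile normalization 4701 genes were called higher and after median-of-ratios scaling 5306, against 2843. A pseudocount of 0.1 gave 1065 genes lower by at least 2-fold. A filter of at least 5 FPKM, which tests fewer genes, gave 455 lower by at least 2-fold, 1996 called lower, and 1255 and 1258 called different from MDA-MB-157 and MDA-MB-231. Leaving out each library in turn gave 1894 to 2193 genes called higher, the lowest without BETi-211 replicate 2, and 697 to 706 lower by at least 2-fold. Replicate numbers were not taken to pair the libraries: the correlation of deviations in MDA-MB-468 ran from -0.119 to 0.337 over pairs of groups and was 0.052 between the compounds. With the replicate block 6109 genes were called, 699 and 37 by at least 2-fold, and 1970 and 1903 differed from the other lines. The block also brought FOS (0.35, adjusted p = 0.00539), FOSL1 (-0.16, 0.0481) and EGFR (0.21, 0.023) past the threshold. The differences between lines could not be fitted with MDA-MB-468 libraries alone. Depth is unknown, groups hold 2 libraries, and compound and dose cannot be told apart.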
